A study of Homo sapiens with 16 samples.

Results

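Potassium channel genes were examined for H3K9me2 around their transcription start sites (TSS). The members are the autosomal genes whose symbol is KCN followed by letters and a final number, read from a table of read counts over windows of 2000 bp, each reaching 1000 bp to both sides of an annotated TSS. The rule used names and positions and no measured value. It selected 93 genes of the 68302 gene features in the table, of which 58769 are autosomal. The 93 genes lie on 20 chromosomes, belong to 20 subfamilies and have 611 windows with distinct coordinates. Of these genes, 16 have 1 window, the median is 4 windows, and *KCNMA1* has the most with 56. The X-linked *KCND1* and *KCNE5* were left out by the rule.

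ChIP-seq had been performed in BJ-5ta cells, an established human foreskin fibroblast line immortalised with telomerase (hTERT). Wild-type cells and *ΔLEO1* cells were compared, the latter being 1 clone in which *LEO1*, a subunit gene of the RNA polymerase II-associated PAF1 complex, was knocked out with CRISPR/Cas9. Both genotypes had been cultured under proliferating conditions (10% serum) and made quiescent by low serum (0.1% for 10 days), and each of these conditions has ChIP and input libraries of replicates A and B (16 libraries in 8 groups). The sample labels name the antibody as H3, whereas the series design and the study's methods name H3K9me2, dimethylation of lysine 9 on histone H3. *ΔLEO1* 10% serum ChIP replicate A holds 50 reads over all distinct windows and 0 reads in the potassium channel genes, and it was left out. *ΔLEO1* cells in 10% serum are therefore represented by 1 ChIP library.

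Potassium channels let potassium ions leave the cell and so set the resting membrane potential and end action potentials. The voltage-gated group (KCNA, KCNB, KCNC, KCND, KCNF, KCNG, KCNH, KCNQ, KCNS, KCNV) holds channels that open on depolarisation and modifier subunits. In the ion-activated group, KCNMA, KCNN and KCNT respond to intracellular calcium or sodium, and KCNU is grouped with them. Inward rectifiers (KCNJ) and 2-pore channels (KCNK) hold the resting potential, and auxiliary subunits (KCNAB, KCNE, KCNIP, KCNMB) tune the pores they bind. Many of these genes are known from neurons, heart and muscle, whereas fibroblasts are known for a smaller set that includes the large-conductance channel *KCNMA1*, the intermediate-conductance channel *KCNN4* and inward rectifiers such as *KCNJ2*. H3K9me2 is a mark of silent chromatin that often covers broad domains and is usually low at the start of active genes.

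The promoters of the members with the highest and the lowest ChIP signal relative to input are shown first, since start windows are what was counted. Sequences are from RefSeq on GRCh38.p14, run from 250 bases before to 50 bases after the gene start on the gene's own strand, and carry CpG dinucleotides (the letters CG, the same on both strands) in capitals. For 3 members at the high end, *KCNA3* (chr1:110674891-110675190, minus strand), *KCNH4* (chr17:42181093-42181392, minus strand) and *KCNJ18* (chr17:21692273-21692572, plus strand), they read as follows.
KCNA3: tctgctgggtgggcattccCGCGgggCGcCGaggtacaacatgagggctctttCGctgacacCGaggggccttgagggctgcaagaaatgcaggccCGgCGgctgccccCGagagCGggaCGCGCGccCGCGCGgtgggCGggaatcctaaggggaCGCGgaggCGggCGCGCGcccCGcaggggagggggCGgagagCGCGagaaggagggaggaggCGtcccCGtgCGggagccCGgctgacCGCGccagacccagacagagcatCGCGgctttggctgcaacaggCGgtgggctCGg
KCNH4: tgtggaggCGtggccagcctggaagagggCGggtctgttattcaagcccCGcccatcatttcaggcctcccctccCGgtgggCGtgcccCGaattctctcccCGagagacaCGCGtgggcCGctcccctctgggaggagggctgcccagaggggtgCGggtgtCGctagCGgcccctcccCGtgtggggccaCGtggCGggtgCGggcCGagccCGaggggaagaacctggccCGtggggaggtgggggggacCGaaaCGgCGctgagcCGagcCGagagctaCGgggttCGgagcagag
KCNJ18: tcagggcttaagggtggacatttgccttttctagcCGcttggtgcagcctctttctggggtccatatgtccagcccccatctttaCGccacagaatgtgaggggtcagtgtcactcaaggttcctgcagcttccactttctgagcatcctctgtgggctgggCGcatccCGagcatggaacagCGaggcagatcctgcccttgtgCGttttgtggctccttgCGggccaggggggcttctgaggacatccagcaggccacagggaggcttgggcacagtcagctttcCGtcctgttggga
At the low end, *KCNAB2* (chr1:5992426-5992725, plus strand), *KCNG4* (chr16:84239963-84240262, minus strand) and *KCNK4* (chr11:64291052-64291351, plus strand) read as follows.
KCNAB2: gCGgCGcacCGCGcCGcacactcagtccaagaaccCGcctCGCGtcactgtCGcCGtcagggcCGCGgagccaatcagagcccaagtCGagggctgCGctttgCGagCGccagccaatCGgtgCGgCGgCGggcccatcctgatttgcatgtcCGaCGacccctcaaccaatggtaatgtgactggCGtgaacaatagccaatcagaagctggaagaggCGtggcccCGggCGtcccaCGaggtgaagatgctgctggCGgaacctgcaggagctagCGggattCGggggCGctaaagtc
KCNG4: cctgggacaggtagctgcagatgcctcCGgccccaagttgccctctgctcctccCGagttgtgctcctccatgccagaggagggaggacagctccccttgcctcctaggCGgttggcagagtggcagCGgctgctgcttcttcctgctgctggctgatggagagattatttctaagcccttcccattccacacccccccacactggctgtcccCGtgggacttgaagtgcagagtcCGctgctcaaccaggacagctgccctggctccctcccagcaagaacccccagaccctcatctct
KCNK4: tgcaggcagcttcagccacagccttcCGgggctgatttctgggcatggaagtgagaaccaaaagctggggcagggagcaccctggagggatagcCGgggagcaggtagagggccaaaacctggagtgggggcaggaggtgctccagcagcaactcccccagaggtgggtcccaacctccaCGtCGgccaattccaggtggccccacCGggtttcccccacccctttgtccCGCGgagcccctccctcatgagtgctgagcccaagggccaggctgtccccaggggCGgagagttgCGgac
The high end held both dense and sparse CpG promoters, with 37 CpG in *KCNA3*, 27 in *KCNH4* and 8 in *KCNJ18*. So did the low end, with 31 CpG in *KCNAB2*, 6 in *KCNG4* and 9 in *KCNK4*. Among 35116 promoters of the same length the median was 14 CpG, and 11.3% had as many as *KCNA3*, whereas 66.3% had as many as *KCNG4*. The lowest member, *KCNK15*, is named only. A promoter was at hand for 69 of the 93 members (74.2%), so a comparison of base composition over the whole group is void.

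Over distinct windows, the 7 ChIP libraries used held 1895572 to 3266061 reads and the 8 inputs 2844483 to 7947289. The median potassium channel gene had 41 to 67 reads in a ChIP library and 47 to 132 in an input library, and the genes together took 0.284 to 0.320% of ChIP reads and 0.230 to 0.256% of input reads. Windows of 1 gene often overlap, so a read can count more than once in a gene's sum, and 107 of the 611 windows also overlap a window of another gene. The wild-type 0.1% serum replicates differed by little more than sampling noise over genes (chi-square per degree of freedom 1.01 for ChIP and 1.006 for input), but over peak regions the ratio was higher (1.49 and 1.095), and they were kept as separate libraries. The inputs of *ΔLEO1* in 10% serum differed most (1.83 over genes and 1.82 over peak regions), and their replicate A was the shallowest input. Input reads at the 3 windows of *LEO1* on chromosome 15 were not lost in *ΔLEO1* (3.67 to 5.22 CPM per window against 4.98 to 6.94 in wild type), so they do not check the genotype labels. Nothing in the labels says that replicates came from separate cultures, so p-values measure the spread between these libraries, which may be technical. ChIP reads do not measure RNA, so the cell type could be checked only through the mark at marker genes.

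The first question was how H3K9me2 ChIP at potassium channel genes stood relative to input. ChIP over input is given as the log2 ratio of normalised read counts (CPM), tested with edgeR's quasi-likelihood F-test over all genes, and a gene is called at a Benjamini-Hochberg adjusted p under 0.05. In wild type in 10% serum, 30 of 93 genes were called higher than input (29.7% of all genes tested) and 24 were called lower (27.3%). In wild type in 0.1% serum, 29 were higher (20.1% of all genes) and 13 lower (23.9%). In *ΔLEO1* in 0.1% serum, 22 were higher (19.7%) and 16 lower (23.8%). The share of potassium channel genes above input was close to that of all genes in wild type in 10% serum, at 32.3%, and in *ΔLEO1* in 0.1% serum, at 23.7%, where leaving out 1 library gave 10 to 17 members and DESeq2 gave 8. In wild type in 0.1% serum it was 31.2%.

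In all 3 conditions, 14 potassium channel genes were higher than input (15.1%, against 9.88% of all genes) and 9 were lower (9.68%, against 18.5% of all genes). In at least 1 condition, 39 were higher (41.9%, against 37.5% of all genes) and 28 were lower (30.1%, against 31.9%), *KCNMB1* being counted on both sides, and 27 were never called (29.0%, against 30.8%), shares close to those of all genes. The median log2 ratio of the members was -0.02, 0.23 and 0.07 in wild type 10%, wild type 0.1% and *ΔLEO1* 0.1% serum, against 0.14, 0.09 and 0.14 for all genes. Averaged over the 3 conditions, the genes spread from -2.11 to 2.06 around a median of 0.05. These values are relative to the middle of all genes, because TMM scaling sets that middle near 0 and the spike-in scaling of the study was not used here. With the totals of the peak table as library sizes instead, the median of all genes moves to -1.81, -1.65 and -1.27, the average of 13 of the 14 genes higher in all 3 conditions turns negative, *KCNA3* being the exception, and the number of members called higher becomes 1, 0 and 0, with 83, 81 and 81 called lower. Without TMM it becomes 34, 38 and 36 higher and 16, 8 and 11 lower.

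**Figure D1:**
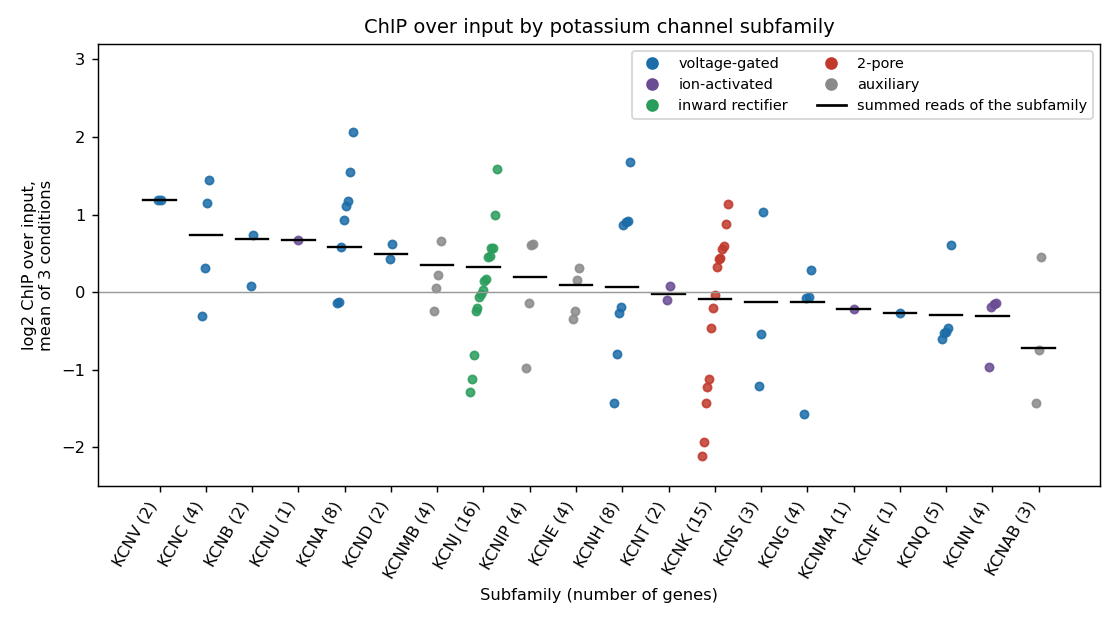
Log2 ChIP over input, averaged over wild type 10%, wild type 0.1% and ΔLEO1 0.1% serum (y axis), for each of the 93 potassium channel genes (points, coloured by role) in its subfamily (x axis, with the number of genes), with the value of the subfamily's summed reads as a black line. KCNV and KCNC stand highest and KCNAB lowest relative to the middle of all genes, which other library totals move below 0 (with non-overlapping windows KCNF is lowest at -0.27 and KCNMA is at 0.36), and the KCNK, KCNJ, KCNH and KCNA subfamilies span wide ranges.

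Summed by subfamily, the silent modifier subunits KCNV stood highest (1.19), with KCNC (0.74), the sperm channel subfamily KCNU (0.67) and KCNA (0.58) also among the highest, whereas the calcium-activated KCNN (-0.31) and the cytosolic β subunits KCNAB (-0.73) stood lowest. The order changed with non-overlapping windows, where KCNF was lowest (-0.27), KCNAB was at -0.19 and KCNN at -0.17, KCNC was at 0.59 behind KCNA, KCND and KCNU, and KCNMA turned from -0.22 to 0.36. The spread between genes of 1 subfamily was larger than most steps in this order. The KCNK genes ran from -2.11 for *KCNK15* to 1.14 for *KCNK1*, and the KCNH genes from -1.43 for *KCNH3* to 1.68 for *KCNH4*. By role, the median gene was at 0.32 for voltage-gated channels, 0.08 for inward rectifiers, 0.05 for auxiliary subunits, -0.03 for 2-pore channels and -0.14 for ion-activated channels.

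Regarding the voltage-gated channels, 9 of 39 genes were higher than input in all 3 conditions and 3 were lower. Beside these counts and those of the other roles below, 9.88% of all genes were higher and 18.5% lower in all 3 conditions. *KCNA3* encodes Kv1.3, the channel best known from T lymphocytes, and was the highest of all members. Its log2 ChIP over input was 2.78 and 2.80 in wild type 10% serum, 2.09 and 1.65 in wild type 0.1% serum, 1.53 and 1.73 in *ΔLEO1* 0.1% serum, and 1.84 in the single *ΔLEO1* 10% serum library. Every library was above input, and the wild-type libraries in 10% serum were above the others. The fitted log2 ratios were 2.72 ± 0.31, 1.89 ± 0.32 and 1.58 ± 0.34 (SE), with edgeR adjusted p-values of 5.44e-07, 6.35e-05 and 0.000817.

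*KCNH4*, an EAG-like channel gene of the brain, had ratios of 1.31 and 0.93 in wild type 10% serum, 2.28 and 2.19 in wild type 0.1% serum, 1.74 and 1.63 in *ΔLEO1* 0.1% serum and 1.57 in *ΔLEO1* 10% serum. Here the wild-type libraries in 0.1% serum were highest, in contrast to *KCNA3*. *KCNA6* (Kv1.6) lay between 1.19 and 1.85 in the 7 libraries, with a mean over conditions of 1.55. *KCNC2* (Kv3.2), a channel of fast-spiking neurons, lay between 1.15 and 1.69, with a mean of 1.45. Both were above input in every library and their conditions overlapped.

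The modifier subunits *KCNV1* and *KCNV2*, which form no working channel alone, both averaged 1.18. *KCNV1* was at 1.60 and 1.59 in wild type 10% serum, 1.38 and 1.09 in wild type 0.1% serum, and 0.74 and 0.75 in *ΔLEO1* 0.1% serum. *KCNV2* had its highest values in wild type 10% serum as well, at 1.51 and 1.59, with the other libraries between 0.91 and 1.06. *KCNA1*, the gene of episodic ataxia, was also called in all 3 conditions (mean 1.11, largest adjusted p 0.00892 by edgeR), as was *KCNH7* (0.91). *KCNA10* (mean 1.18) was called in both wild-type conditions but not in *ΔLEO1* 0.1% serum, where the edgeR adjusted p was 0.0609.

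**Figure D2:**
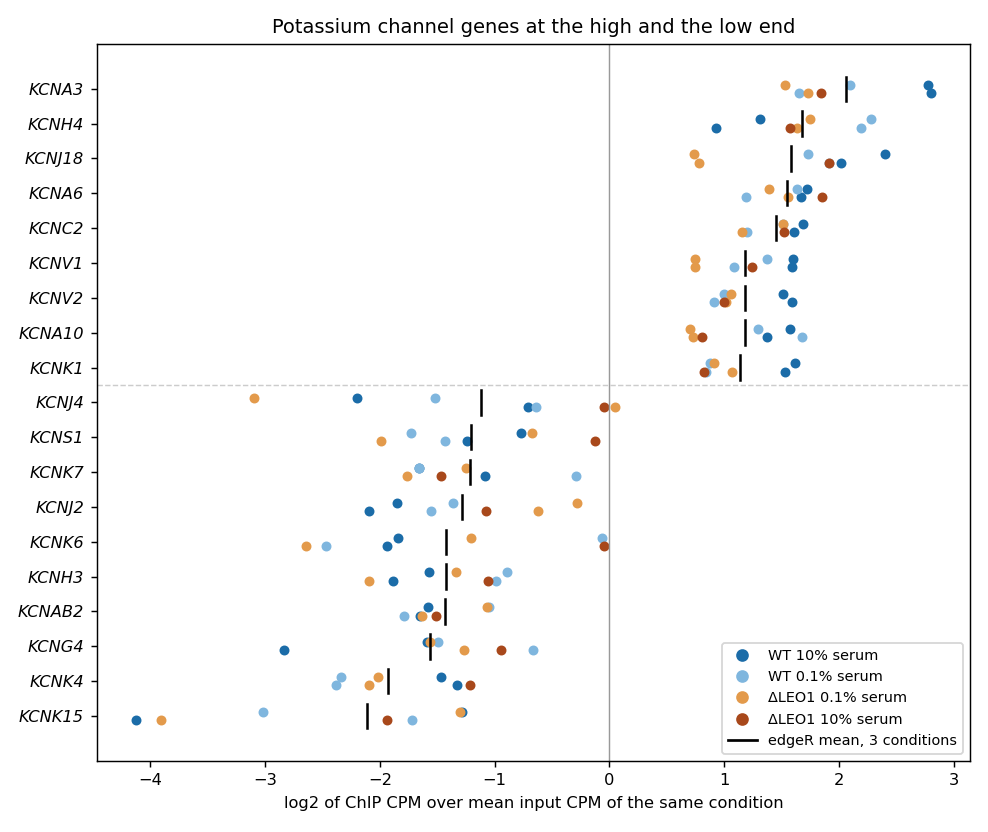
Log2 ratio of ChIP CPM to the mean input CPM of the same condition (x axis) for 9 of the 10 highest and for the 10 lowest potassium channel genes (y axis), with a point for each of the 7 ChIP libraries coloured by condition and the edgeR mean of 3 conditions as a black line. The 9 genes at the high end are above input in every library with TMM scaling (with peak-table totals all of these but KCNA3 average below it), and at the low end the libraries of KCNK15 and KCNJ4 spread most.

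The 3 voltage-gated genes lower than input in all 3 conditions were *KCNG4*, *KCNH3* and *KCNS1*. *KCNG4*, a modifier of Kv2 channels, had ratios of -1.59 and -2.83 in wild type 10% serum, -1.50 and -0.67 in wild type 0.1% serum, and -1.56 and -1.26 in *ΔLEO1* 0.1% serum. *KCNH3*, an EAG-like channel gene, lay between -2.10 and -0.89 over the 7 libraries, and *KCNS1*, another Kv2 modifier, between -1.99 and -0.13. All 7 libraries of these genes were below input, and the *ΔLEO1* 0.1% serum replicates of *KCNS1* were far apart at -0.68 and -1.99.

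Among the voltage-gated channels known from heart and brain, the KCNQ genes stood on both sides of input. *KCNQ3*, which carries part of the M current of neurons, was above input in all 7 libraries (0.37 to 0.85, mean 0.61) and was called in wild type 10% and *ΔLEO1* 0.1% serum. *KCNQ1*, the cardiac slow delayed rectifier, averaged -0.52 and was called lower in *ΔLEO1* 0.1% serum, while *KCNQ5* averaged -0.53 and was called lower in both wild-type conditions. *KCNH1* (EAG1) was called lower in both wild-type conditions too (mean -0.79). The calls of *KCNQ5* and *KCNH1* did not hold with non-overlapping windows, where *KCNQ5* averaged 0.07 and *KCNH1* turned to 0.28 and was called higher in *ΔLEO1* 0.1% serum (0.56, edgeR adjusted p = 0.00417). *KCNH2* (hERG), the cardiac rapid delayed rectifier, was never called (mean -0.19). *KCND2* (Kv4.2), which carries the fast transient current of dendrites, was called higher in wild type 10% serum (mean 0.43), where its replicates were at 1.03 and 0.31. Other voltage-gated members were called lower in wild type 10% serum only, *KCNS3* (-1.71) and *KCNF1* (-1.32) among them, and *KCNC4* (Kv3.4) in wild type 10% serum (-0.66) and in *ΔLEO1* 0.1% serum (-0.58), where non-overlapping windows of *KCNC4* gave -0.17 and -0.11 and no call.

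None of the 8 ion-activated channel genes was higher than input in all 3 conditions, and *KCNN1* was lower. *KCNMA1*, the large-conductance calcium-activated channel, lay between -0.42 and -0.06 in the 7 libraries and was called lower in wild type 10% serum (-0.40 ± 0.16, edgeR adjusted p = 0.0339). With non-overlapping windows the direction turned, to 0.17 in wild type 10%, 0.30 in wild type 0.1% and 0.40 in *ΔLEO1* 0.1% serum, the last 2 called higher (edgeR adjusted p = 0.0250 and 0.00269). *KCNN4* (mean -0.14) was at -0.63 and -0.44 in wild type 10% serum and between -0.20 and 0.27 elsewhere, and was called lower in wild type 10% serum (edgeR adjusted p = 0.0472). *KCNN1* (SK1), a small-conductance channel of neurons, lay between -1.30 and -0.59 in all 7 libraries. *KCNT1*, the sodium-activated channel, averaged -0.10 and was called lower in *ΔLEO1* 0.1% serum (edgeR adjusted p = 0.0453).

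Of the 16 inward rectifiers, *KCNJ18* and *KCNJ1* were higher than input in all 3 conditions and none was lower in all 3. *KCNJ1* (ROMK), the potassium secretion channel of the kidney, averaged 1.00. *KCNJ18*, a skeletal muscle channel gene, was at 2.40 and 2.01 in wild type 10% serum, 1.73 and 1.92 in wild type 0.1% serum, 0.73 and 0.78 in *ΔLEO1* 0.1% serum, and 1.91 in *ΔLEO1* 10% serum. *KCNJ18* and *KCNJ12* are near-identical copies, so reads may be split between them and the values of both are uncertain. *KCNJ2* (Kir2.1), which stabilises the resting potential, was below input in all 7 libraries (mean -1.29). Its ratios were -1.85 and -2.10 in wild type 10% serum, -1.37 and -1.56 in wild type 0.1% serum, but -0.28 and -0.63 in *ΔLEO1* 0.1% serum, and only the wild-type conditions were called. *KCNJ4* (Kir2.3, mean -1.12) has 1 window with few reads and was called lower in wild type 10% serum alone (-1.21), as was *KCNJ8* (Kir6.1), the pore of vascular ATP-sensitive channels (-1.42, but -0.50 and not called with non-overlapping windows).

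The 2-pore channels included 4 of the 9 genes lower than input in all 3 conditions, and 1 higher. *KCNK4* (TRAAK), opened by membrane stretch, was at -1.47 and -1.33 in wild type 10% serum, -2.34 and -2.38 in wild type 0.1% serum, -2.01 and -2.09 in *ΔLEO1* 0.1% serum, and -1.21 in *ΔLEO1* 10% serum. With all windows, both genotypes were lower in 0.1% serum than in 10% serum, an order that turned in the fold changes with non-overlapping windows (0.29 in wild type and 0.41 in *ΔLEO1*, neither called). *KCNK15*, the lowest member (mean -2.11), lay between -4.12 and -1.29 on 1 window, and these extremes were the wild-type 10% serum replicates. *KCNK2* (TREK1), another stretch-activated channel, averaged -1.12 (not called in *ΔLEO1* 0.1% serum with non-overlapping windows), and *KCNK7*, for which no current of its own is known, averaged -1.22. *KCNK6* (TWIK2, mean -1.42) was called in wild type 10% and *ΔLEO1* 0.1% serum only, and its wild-type 0.1% serum replicates were far apart at -0.06 and -2.47. *KCNK1* (TWIK1) was the exception, above input in all 7 libraries (0.82 to 1.61, mean 1.14).

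Among the 15 auxiliary subunits, *KCNIP4*, a calcium-binding partner of Kv4 channels, and *KCNMB3*, a β subunit of the large-conductance channel, were higher than input in all 3 conditions (means 0.62 and 0.65), *KCNMB3* not being called in wild type 0.1% serum with non-overlapping windows. *KCNAB2*, the cytosolic β2 subunit of Kv1 channels, was lower in all 3, at -1.58 and -1.65 in wild type 10% serum, -1.05 and -1.79 in wild type 0.1% serum, and -1.07 and -1.63 in *ΔLEO1* 0.1% serum. *KCNMB1*, the β1 subunit of smooth muscle, was the only member called in opposite directions, higher in wild type 10% serum (0.93 ± 0.28, edgeR adjusted p = 0.0064) and lower in *ΔLEO1* 0.1% serum (-1.22 ± 0.32, edgeR adjusted p = 0.0043). The remaining subunits called lower in some condition were *KCNIP3*, in wild type 10% (-1.19) and *ΔLEO1* 0.1% serum (-1.16), *KCNAB3*, in both wild-type conditions (-1.05 and -0.72), and *KCNE4*, in *ΔLEO1* 0.1% serum (-0.76).

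Several potassium channel genes have more than 1 start, and their windows differed within the gene. Of the 611 windows, 576 held at least 50 input reads over the 6 inputs of the 3 conditions, and among them 60 were above 1 and 134 below -1 in log2 ChIP over input. For 58 genes, windows within 1000 bp of the RefSeq gene start could be compared with the other starts. The gene start was lower in 38 and higher in 20 (median difference -0.35), and over all 13921 genes with both kinds of window it was lower in 68.8% (median -0.54). A gene start lower by 2 log2 units or more was found in 6 members (10.3%, against 16.5% of all genes).

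*KCNMA1* showed the widest contrast. Its 28 windows at the gene start gave -2.94 and the other 28 gave 0.52. In the window at the start (chr10:77636808-77638808), ChIP libraries held 0 to 4 reads and inputs 6 to 43. *KCNH1* was similar, at -2.42 for the gene start and 0.83 for the other starts, as were *KCNJ5*, a subunit of the acetylcholine-gated channel of the heart (-1.86 and 1.07), and *KCNQ5* (-2.0 and 0.32). *KCNAB2* was low at the gene start (-3.38), where ChIP libraries held 0 to 3 reads against 20 to 57 in the inputs, and less so elsewhere (-0.84). The windows at a gene start overlap heavily and share reads, and they are not independent measurements.

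**Figure D3:**
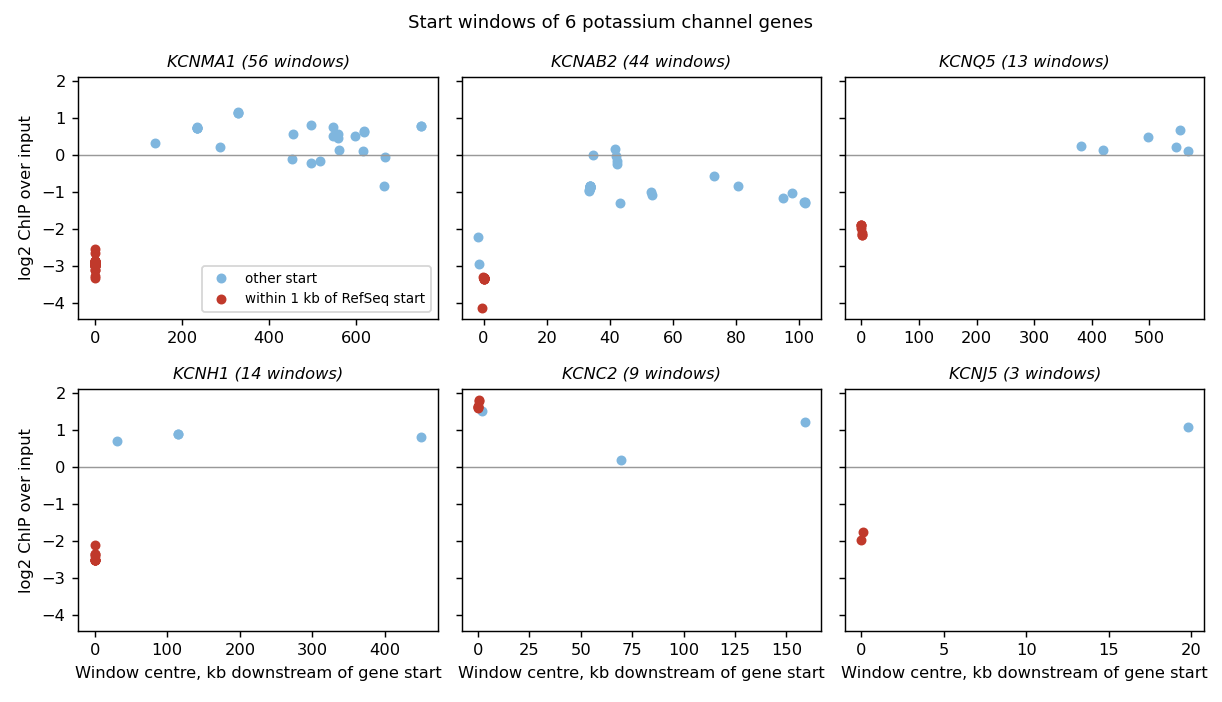
Log2 ChIP over input of single windows (y axis) against the distance of the window's centre from the RefSeq gene start in kb (x axis) for 6 potassium channel genes, with windows within 1000 bp of the start in red and other starts in blue. KCNMA1, KCNAB2, KCNQ5, KCNH1 and KCNJ5 have their lowest windows at the start (down to -4.13 in KCNAB2 and -3.32 in KCNMA1), whereas the start windows of KCNC2 are above its other windows, an order within the gene that library scaling does not move.

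The opposite order was found for *KCND2*, with 1.42 at the gene start and -0.18 elsewhere, for *KCNQ1* (0.00 and -1.30) and for *KCNC2* (1.68 and 1.02). For *KCNQ1* it did not hold in every library. The start was lower in wild type 0.1% serum replicate A (-0.72 against -0.51) and *ΔLEO1* 0.1% serum replicate B (-1.59 against -1.29). At the *KCNC2* start (chr12:75208839-75210839) the ChIP libraries held 18 to 48 reads and the inputs 8 to 36. Thus the summed value of a gene with many starts, such as the -0.22 of *KCNMA1*, stood for windows on both sides of input, and it was 0.29 with non-overlapping windows.

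The peak table, a second count table of enriched regions, was then searched for the same genes. Of its 16092 regions, 128 (0.795%) have a potassium channel gene as nearest gene, for 43 of the 93 members. Their median distance from the gene start was 60.8 kb, 6 lay within 1 kb, and 61 were annotated as repeats. *KCNU1* had the most regions with 12, followed by *KCNJ18* with 10, *KCNK9* (TASK3) with 9, *KCNV1* with 7 and *KCNC2* with 6. The log2 ChIP over input of the 128 regions ran from 0.90 to 2.34 with a median of 1.66, which describes regions chosen for being enriched.

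Windows of 9 members overlapped 11 of these regions, namely *KCNA3*, *KCNA6*, *KCNC2* with 3, *KCNH4*, *KCNJ15*, *KCNN2*, *KCNS2*, *KCNV1* and *KCNV2*. The region of *KCNA3* (chr1:110673528-110675702) is annotated to its only exon and held 304 reads in 6 ChIP libraries against 136 in 6 inputs. That of *KCNH4* (chr17:42179479-42181671) is annotated to intron 1 and held 301 against 179 reads. Both contain the whole promoter printed above.

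Genes outside the rule were set beside the members. Of 17 tested partners and relatives of potassium channels, 3 were higher than input in all 3 conditions (9.88% of all genes) and 0 were lower (18.5% of all genes, median of the 17 genes 0.36). These were the Kv4 partners *DPP6* (1.2) and *DPP10* (1.01) and the Kv1-clustering protein gene *CNTNAP2* (0.87). The sulfonylurea receptor genes *ABCC8* (0.50) and *ABCC9* (-0.48), which pair with KCNJ pores, were not called in all 3. Of 19 voltage-gated sodium and calcium channel pore genes, *SCN10A* was higher and *CACNA1G* lower in all 3 (median -0.08). Cytosolic ribosomal protein genes, which every cell uses, had a median of -1.40, with 50 of 75 lower in all 3 conditions and 1 higher. Of 12 fibroblast marker genes 10 were lower and 0 higher (median -1.71), of 6 neuron markers 1 was lower and 1 higher (median -0.09), and of 4 keratinocyte markers 1 was higher (median 0.58).

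The members with higher ChIP over input tended to lie in regions with fewer genes. Across the 93 members, the log2 ratio and the number of genes within 500 kb had a Pearson r of -0.29 and a Spearman rho of -0.27, given as a description, since genes share libraries and neighbouring members share regions. The 31 highest members had a median of 19 genes within 500 kb, the middle 31 had 24 and the lowest 31 had 34. The number of windows (rho -0.15) and the gene length (rho 0.09) went less with the ratio. Gene density was counted for the members only, so whether they differ in this from all genes was not tested.

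Next, *ΔLEO1* was compared with wild type in 0.1% serum, using ChIP read counts (CPM) of the 7 libraries. Of the 93 genes 91 passed the filter on low counts, *KCNJ4* and *KCNK15* being left out by it. The number of members called was 0 (edgeR, adjusted p under 0.05), against 0.0113% of all genes, and DESeq2 called 0. At an unadjusted p under 0.05 there were 13 members (14.3%), against 10.0% of all genes. The median log2 fold change of the members was -0.11, with 35 above and 56 below 0, while the median of all genes was -0.01. With the totals of the peak table these medians became 0.20 and 0.31, so the sign of the members' median depends on the scaling. TMM scaling sets the middle of all genes near 0, so a change shared by all genes cannot be seen. With it, lower and higher in *ΔLEO1*, here and below, are relative to that middle. With spike-in scaling, the study reported far more start regions with raised than with reduced H3K9me2 in quiescent *ΔLEO1* cells. Groups did not overlap for 31 members lower in *ΔLEO1* (34.1%, against 21.4% of all genes) and for 15 members higher (16.5%, against 19.8%). By subfamily, 11 of 20 did not overlap (41.3% of all single genes did not). Of these, 8 were lower in *ΔLEO1* (52% of the single genes without overlap were lower). Most subfamilies sum the reads of several genes, and their scaling came from 15 libraries instead of 7, so these shares are not like for like. KCNF (log2 difference -0.78), KCNU (-0.40) and KCNC (-0.37) were lower by the most. KCNF and KCNU hold 1 gene each, and *KCNF1* has 1 window with 5 to 16 reads in the ChIP libraries.

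**Figure D4:**
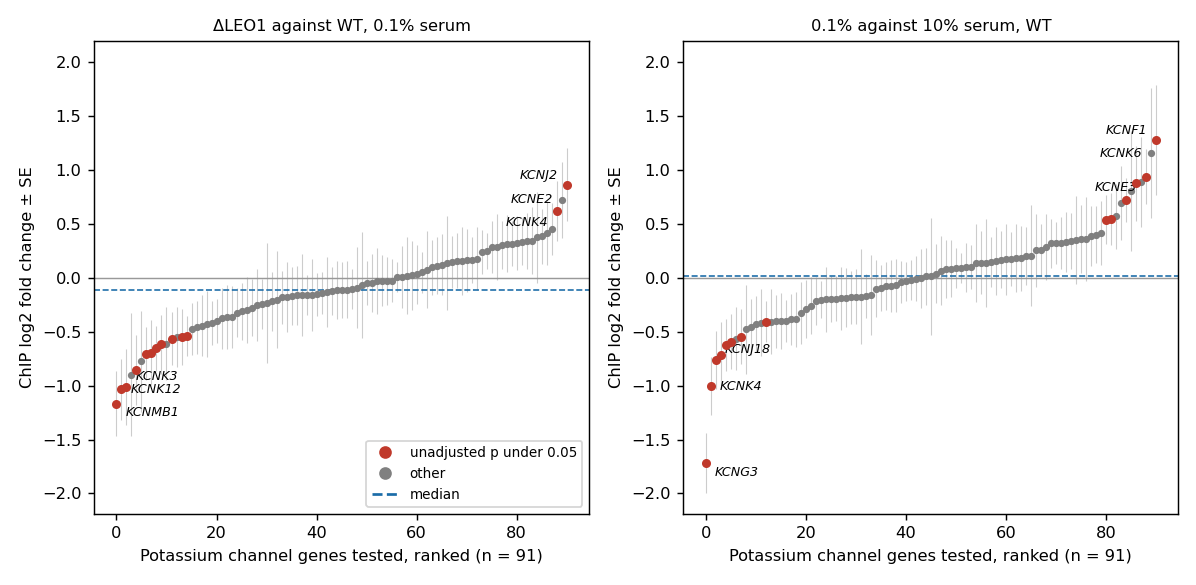
Log2 fold change of ChIP reads ± SE (y axis) for the 91 potassium channel genes tested, ranked on the x axis, for ΔLEO1 against wild type in 0.1% serum (left) and for 0.1% against 10% serum in wild type (right), with red points for an unadjusted p under 0.05 and a dashed line at the median. The median is -0.11 on the left (0.20 with peak-table totals) and 0.01 on the right, and 0 genes pass the adjusted threshold in either panel.

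The lowest values in *ΔLEO1* in 0.1% serum were those of *KCNMB1*, *KCNK12* and *KCNK3*. *KCNK12* (THIK2), a silent 2-pore channel, gave 8.46 and 7.23 CPM in *ΔLEO1* against 16.5 and 16 in wild type (log2 fold change -1.03 ± 0.28, edgeR adjusted p = 0.240), and its input moved the other way (0.92 ± 0.29, edgeR adjusted p = 0.865). *KCNK3* (TASK1), an acid-sensitive channel, gave 3.62 and 4.97 CPM against 9.62 and 7.17 (-1.01 ± 0.35, edgeR adjusted p = 0.348). At the other end were *KCNJ2*, with 9.06 and 7.23 CPM in *ΔLEO1* against 4.81 and 4.22 in wild type (0.86 ± 0.34, edgeR adjusted p = 0.417), *KCNE2* (0.72 ± 0.35) and *KCNK4* (0.61 ± 0.28). In each of these genes both *ΔLEO1* libraries lay outside the wild-type pair, and none passed the adjusted threshold.

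*KCNMB1* was lowest in *ΔLEO1* in both sera. Its ChIP reads were 15.1 and 16.4 CPM in wild type 10% serum and 12 and 11.8 CPM in wild type 0.1% serum, against 4.23 and 6.78 CPM in *ΔLEO1* 0.1% serum and 4.21 CPM in the *ΔLEO1* 10% serum library. The 4 wild-type libraries were all above the 3 *ΔLEO1* libraries. The log2 fold change was -1.17 ± 0.30 in 0.1% serum (edgeR adjusted p = 0.214) and -1.9 ± 0.43 in 10% serum (edgeR adjusted p = 0.221). Input reads did not pass the test in either serum (0.49 and 0.25, edgeR adjusted p = 0.994 and 0.901). Both of its windows (chr5:170388367-170390634) overlap each other and windows of *KCNIP1-OT1*, and the gene lies between starts of *KCNIP1*, a Kv4 partner.

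**Figure D5:**
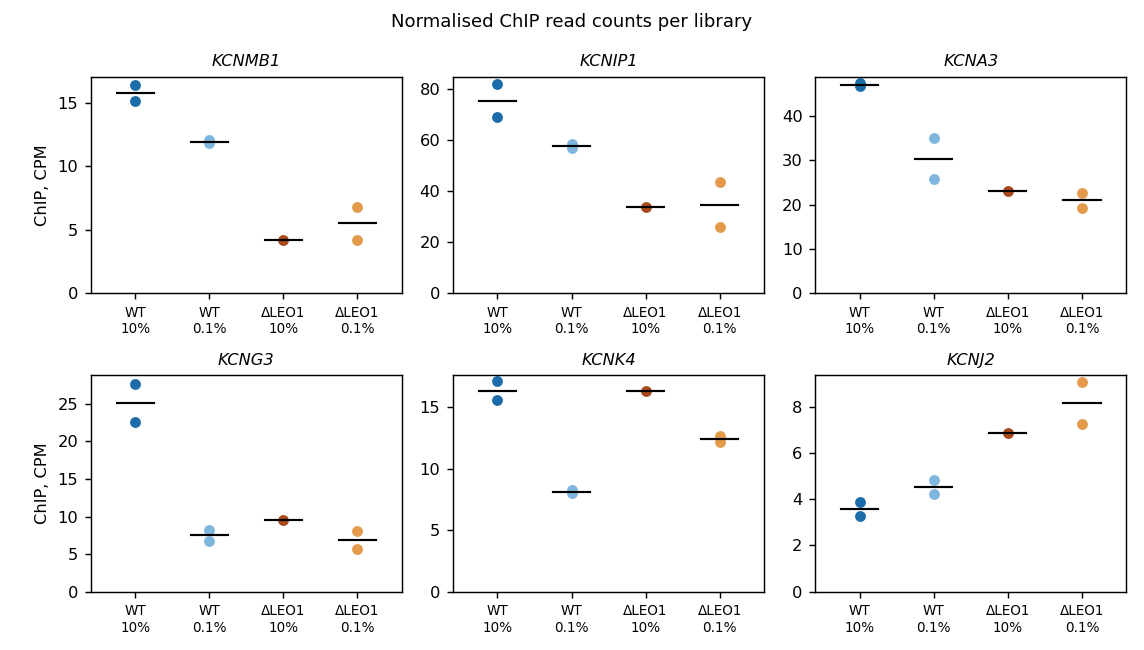
Normalised ChIP read counts (CPM, y axis) of 6 potassium channel genes in each of the 7 ChIP libraries, grouped by genotype and serum (x axis), with the group mean as a black line. All 4 wild-type libraries of KCNMB1, KCNIP1 and KCNA3 are above the 3 ΔLEO1 libraries, those of KCNJ2 are below them, and KCNG3 is highest in wild type 10% serum.

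*KCNIP1* gave 81.7 and 68.9 CPM in wild type 10% serum, 56.7 and 58.2 in wild type 0.1% serum, 43.5 and 25.8 in *ΔLEO1* 0.1% serum and 33.7 in *ΔLEO1* 10% serum. *KCNA3* gave 46.7 and 47.4, then 35 and 25.7, then 19.3 and 22.6, and 23.2 CPM in the same order. For both genes, too, the wild-type libraries were above the *ΔLEO1* libraries. When the genotype was averaged over both sera, a comparison added after the values were seen, *KCNMB1* was called lower in *ΔLEO1* (-1.53 ± 0.26, edgeR adjusted p = 0.0364) and 0 members were called higher, against 0.213% of all genes lower and 0.0774% higher, with 14 members at an unadjusted p under 0.05 (15.4%, against 12.5%). *KCNIP1* (-0.93) had an adjusted p of 0.0733 by edgeR and 0.0419 by DESeq2, which gave no adjusted p for *KCNMB1*. The call of *KCNMB1* was lost when any 1 of the 6 libraries of the other groups was left out (adjusted p by edgeR 0.0543 to 0.0952) and with the replicate letter as a block (0.0725).

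Windows that do not overlap within a gene (260 of the 611) avoid repeated counts but leave out reads that lie only in the dropped windows. With them, the averaged comparison called 7 of 90 members lower in *ΔLEO1* (against 1.31% of all genes) and 0 higher (against 0.546%). These were *KCNMB1*, *KCNIP1*, *KCNA3*, *KCNJ18*, *KCNK3*, *KCNK9* and *KCNJ6*, with log2 fold changes from -1.64 to -0.42. *KCNJ18* and *KCNK3* have 1 window each, so their calls came with no change in their own reads. In 10% serum this comparison rests on the single *ΔLEO1* ChIP library, and leaving out libraries was not tried with these windows. For *KCNJ6* the averaged value was -0.80, against -0.47 to -0.13 in 0.1% serum alone over the 10 alternatives that left out no single library. In 0.1% serum alone, the same windows gave 1 member called, *KCNT1* (-0.62 ± 0.14, edgeR adjusted p = 0.00588). The share of all genes called in that fit is not given here, so this call is not read as a result about the members.

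Serum was compared in wild type. The number of members called between 0.1% and 10% serum was 0 by edgeR, as for all genes (0%), and DESeq2 called 0. At an unadjusted p under 0.05 there were 14 members (15.4%, against 9.06% of all genes). The median log2 fold change was 0.01, and groups did not overlap for 21 members higher in 0.1% serum (23.1%, against 20.0%) and 27 lower (29.7%, against 20.3%). By subfamily 13 of 20 did not overlap (40.4% of all single genes did not), with KCNF, which is *KCNF1* alone, higher (log2 difference 1.27) and KCNG (-0.78) and KCNV (-0.47) lower in 0.1% serum. Here too the shares of subfamilies and of single genes are not like for like.

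The lowest log2 fold change among the members was that of *KCNG3*, a Kv2 modifier. It gave 27.7 and 22.6 CPM in 10% serum against 8.25 and 6.75 CPM in 0.1% serum in wild type, while *ΔLEO1* gave 9.47 CPM in 10% serum and 5.74 and 8.14 CPM in 0.1% serum. Thus only the wild-type libraries in 10% serum were high. The log2 fold change in wild type was -1.72 ± 0.28 (edgeR adjusted p = 0.195), and it was called with non-overlapping windows (adjusted p by edgeR 0.00111) and with the near-empty library kept (0.0107). Its input moved in the same direction without passing the test (-0.87, edgeR adjusted p = 0.413), and the change in ChIP over input was smaller, at -0.91 ± 0.43. Both windows overlap windows of *MTA3*.

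*KCNK4* gave 15.6 and 17.1 CPM in 10% serum against 8.25 and 8.01 CPM in 0.1% serum in wild type (-1.0 ± 0.27, edgeR adjusted p = 0.314, but 0.29 ± 0.42 with non-overlapping windows) and *KCNJ18* had -0.76 ± 0.27. The highest values were those of *KCNF1*, a modifier subunit, at 4.12 and 6.75 CPM in 0.1% against 2.16 and 2.19 CPM in 10% serum (1.28 ± 0.51), *KCNK6* (1.15 ± 0.60) and *KCNE3*, an auxiliary subunit of epithelial *KCNQ1* channels, at 36.1 and 38.0 against 22.5 and 16.4 CPM (0.93 ± 0.26, edgeR adjusted p = 0.333). The *KCNK6* value rested on 1 library, since the 0.1% serum replicates gave 13.4 and 2.53 CPM against 3.89 and 3.64 in 10% serum. Averaged over both genotypes, 0 members were called higher or lower in 0.1% serum with all windows (against 0.00378% and 0.00566% of all genes) by edgeR, with 18 at an unadjusted p under 0.05 (19.8%, against 13.6%), and DESeq2 called 0. With non-overlapping windows *KCNMA1* and *KCNJ15* were called higher and 3 members lower, *KCNJ18* and *KCNA4* among them (against 0.892% and 0.997% of all genes).

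In 10% serum *ΔLEO1* had 1 ChIP library, which is assumed to vary like the other groups. Against wild type 0 members were called (0.00378% of all genes), with 8 at an unadjusted p under 0.05 (8.79%, against 8.74% of all genes) and 0 by DESeq2. The lowest values were *KCNMB1* (-1.9), *KCNG3* (-1.40) and *KCNK3* (-1.23), and the highest *KCNS3* (1.33, but 0.59 with non-overlapping windows), *KCNS1* (1.16) and *KCNK6* (1.06). Averaged over both sera, *KCNS3* was at 0.84 with all windows and -0.0077 with non-overlapping ones. Between sera in *ΔLEO1*, 0 members were called by edgeR (0.00189% of all genes) and by DESeq2, with 10 at an unadjusted p under 0.05 (11.0%, against 10.0%). *KCNS1* (-1.2), *KCNA4* (-1.17) and *KCNA5* (-1.01) were lowest, and *KCNJ6* (1.06), *KCNJ8* (0.98, but 0.64 with non-overlapping windows) and *KCNK17* (0.84) highest. Whether the serum effect differed between genotypes was tested by the interaction, with 0 members called by edgeR (0% of all genes) and by DESeq2 and 2 at an unadjusted p under 0.05 (against 5.90% of all genes), *KCNE3* (-1.04 ± 0.41, but -0.58 with non-overlapping windows) and *KCNG3* (1.24 ± 0.50). The difference for *KCNK6* (-1.96 ± 0.98) was the largest in size and had an unadjusted p of 0.0652.

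The peak regions nearest to potassium channel genes were tested in the same way. Of the 128 regions, 0 were called between genotypes in 0.1% serum (0.0621% of all regions) and 0 between sera in wild type (0%) by edgeR and by DESeq2, with 9 and 10 at an unadjusted p under 0.05 (7.03% and 7.81%, against 8.33% and 7.27% of all regions). A region in *KCNMA1* 62.1 kb from its start, a MER5B repeat, had 82.8 and 121 CPM in *ΔLEO1* against 42.9 and 27.2 CPM in wild type in 0.1% serum (1.46 ± 0.40, edgeR adjusted p = 0.130). The region over *KCNA3* gave 210 and 219 CPM in 10% serum and 153 and 119 CPM in 0.1% serum in wild type (-0.64 ± 0.24, edgeR adjusted p = 0.549). Neither passed the adjusted threshold.

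The inputs were compared in the same way, as background. By edgeR 0 of 93 members were called between the genotypes in 0.1% serum (0% of all genes, with 6 members at an unadjusted p under 0.05, 6.45% against 5.18% of all genes) or in 10% serum (0.00174%, 14 members, 15.1% against 6.74% of all genes). Between sera 0 were called in wild type (0.00174%, 13 members, 14.0% against 8.30%) and in *ΔLEO1* (0%, 4 members, 4.30% against 4.40%), and DESeq2 called 0 in each of the 4 comparisons. *KCNJ4*, on 1 window, had the largest input difference, with 1.75 and 1.48 CPM in 0.1% serum against 5.03 and 5.10 in 10% serum in wild type (-1.63 ± 0.36, edgeR adjusted p = 0.192), followed by *KCNS2* (-1.30). Between genotypes *KCNA4* was at -1.01 and *KCNK13* at -0.82 in 10% serum, and *KCNK12* at 0.92 and *KCNS2* at 0.74 in 0.1% serum, and between sera in *ΔLEO1* *KCNA4* was at 0.94 and *KCNK6* at 0.65. Input differences of this size were as large as many of the ChIP differences of the same genes. A change in ChIP over input, which takes the input into account, was fitted only for genotype in 0.1% serum and for serum in wild type. For the other comparisons the part of the input was not tested.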

How the data were processed

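ChIP and input libraries of wild-type and *ΔLEO1* BJ-5ta cells, 2 replicates in each of 8 groups, were used as deposited. The authors aligned the reads with STAR 2.7.10a after bcl2fastq 2.20.0.422, as the submitters' processing notes name them, and deposited raw read counts per TSS window and per peak region, annotated with HOMER. Their methods also describe csaw and spike-in scaling, which could not be repeated here, so a shift shared by all genes cannot be seen. The submitters' processing notes name the builds hg38 and dm6, the latter of the fly. Coordinates are printed as the files give them, on hg38, and promoters and gene starts were taken from RefSeq GRCh38.p14.

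Windows of 1 gene with distinct coordinates were summed. Counts were filtered with filterByExpr (minimum count 10), scaled by TMM and tested over all genes with edgeR 4.0.16 (R 4.3.3), by the quasi-likelihood test with Benjamini-Hochberg adjustment over all genes. ChIP over input was fitted to 15 libraries, ChIP contrasts to 7 ChIP libraries and input contrasts to 8 inputs. In these fits the *ΔLEO1* 10% serum ChIP group has 1 library. Log2 ratios of single libraries are ChIP CPM over the mean input CPM of their condition. DESeq2 1.42.0, other library sizes, filters, windows and left-out libraries were alternatives, and contrasts averaged over the other factor were chosen after seeing the data. Scripts were tested on simulated data. Same-lettered replicates did not deviate together between groups (r 4.0e-05 to 0.015 for ChIP and 0.013 to 0.111 for input, where 1 of 6 pairs of groups was over 0.1), and letters were not taken to pair libraries. Reads carry no molecular identifiers, so precision from depth covers counting error only.

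Members, roles and gene lists were chosen with earlier results of these data known. Genes were named as the 10 highest and 10 lowest in mean ChIP over input, every member called lower than input, the 3 highest and 3 lowest in each ChIP contrast, the most extreme 2 in each input contrast, and a list of channels known from fibroblasts, heart and brain. *KCNIP1*, *KCNMB1* as an averaged contrast, and genes named from the windows and peaks were chosen after their values were seen. Some genes that this rule names are not reported here.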

Additional observations from a re-analysis of the deposited data

How the results depend on the processing

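Among single named genes, 851 values kept direction and call under the alternatives, 26 gained a call and 47 lost one. Another 14 changed sign with no call before or after, and 10 turned negative with a call before or after. Of the counts and medians, 286 stayed and 33 moved. The sensitive choice was the library size. With peak-table totals, members called above input numbered 1, 0 and 0 in wild type 10%, wild type 0.1% and *ΔLEO1* 0.1% serum, members called below 83, 81 and 81, their medians were -1.97, -1.51 and -1.33, and the genotype median in 0.1% serum was 0.20. *KCNH4* (-0.026), *KCNJ18* (-0.12), *KCNA6* (-0.15), *KCNC2* (-0.26), *KCNV1* (-0.52), *KCNV2* (-0.52), *KCNK1* (-0.57), *KCNA1* (-0.59), *KCNQ3* (-1.10) and *KCND2* (-1.28) then averaged below input. In all, 47 of the 48 members averaging above 0 with TMM scaling averaged below it with these totals. Without TMM the medians were 0.24, 0.48 and 0.36, with 8 called below input in wild type 0.1% serum and 36 above it in *ΔLEO1* 0.1% serum. With the near-empty library kept, 19 and 10 members were above input in 0.1% serum in wild type and *ΔLEO1*, and serum in wild type called 1 member, *KCNG3*. DESeq2 called 8 members above input in *ΔLEO1* 0.1% serum.

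With non-overlapping windows, genotype in 0.1% serum called 1 member (*KCNT1*), serum in wild type 2 (*KCNG3*, *KCNJ15*) and serum in *ΔLEO1* 2 (*KCNMA1*, *KCNT1*). The averaged genotype contrast called 1 member with all windows, 1 without TMM, 1 by DESeq2 and 7 with non-overlapping windows, and the averaged serum contrast called 5 with non-overlapping windows. For the contrasts of single conditions with non-overlapping windows the share of all genes called is not given, so their counts are not read as results about the members. Apart from the construction of the alternatives, the cause of these shifts was not tested. Leaving out 1 library gave 22 to 25, 21 to 25 and 10 to 17 members above input, 16 to 21, 9 to 10 and 10 to 13 below, medians from -0.13 to 0.06, 0.13 to 0.30 and -0.02 to 0.16, a genotype median from -0.19 to -0.09, a serum median from -0.03 to 0.02, and 0 to 1 input calls in 10% serum (*KCNIP2*, without *ΔLEO1* 10% serum input replicate B). With the replicate letter as a block, 30, 28 and 22 members were above and 23, 13 and 15 below input and 0 were called in any contrast between conditions, the averaged genotype contrast included, which called 1 without the block (*KCNMB1*). At a median of 41 to 67 reads per gene and ChIP library and 2 libraries a group, differences that are small against this counting error were not detectable.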
